A study of Mus musculus with 32 samples.

Results

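The globin and erythroid genes described here are 6 genes, *Hba-a2*, *Hbb-b1*, *Hbb-b2*, *Beta-s*, *Alas2* and *Slc4a1*, each measured by 1 probe on a mouse array that names 34821 genes and probe targets. They were found by gene name among the 55681 probes of the array, and all 6 were found. The 4 globins had been selected on measured values, since the study lists them among the transcripts that differ in order between the control liver cell types. Differences between the control cell types are therefore given as a description without a test, and the control values also take part in the comparisons of exposed with control cells.

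Hemoglobin, the oxygen carrier of the red blood cell, is built from alpha and beta globin chains and heme. The chains are made in very large amounts in the erythroid precursors of the bone marrow, and reticulocytes that have lost their nucleus still carry globin mRNA in the blood. *Hba-a2* encodes an alpha chain, and *Hbb-b1*, *Hbb-b2* and *Beta-s* are probes for adult beta chains. *Alas2* encodes the erythroid 5-aminolevulinate synthase, the enzyme that starts heme synthesis in red cell precursors, and *Slc4a1* encodes band 3, the anion exchanger that anchors the red cell skeleton to the membrane. Sinusoidal endothelial cells, Ito (stellate) cells and Kupffer cells, the macrophages of the liver, are not red cell precursors, and each borders on or lies close to the blood of the sinusoid.

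The probes are 60 bases long, and their positions are those of mm9 in the array files. The *Hba-a2* probe lies on chromosome 11 at chr11:32197245-32197304, the *Hbb-b1* probe at chr7:110961105-110961164, the *Beta-s* probe at chr7:110976379-110976438, the *Alas2* probe at chrX:147004993-147005052 and the *Slc4a1* probe at chr11:102210256-102210315. The *Hbb-b2* probe is given no position. By the transcript each probe was designed on, RefSeq (GRCm38.p6) now calls the *Hbb-b1* target *Hbb-bt* and the *Beta-s* target *Hbb-bs*. BALB/c mice carry another haplotype of the beta globin locus than the C57BL reference, and near-identical globin copies may share a probe, so the 3 beta probes are not read as 3 separate genes. The *Hbb-b2* probe is shown because it has no position on the reference. It begins at base 195 of its transcript and has 1 reading frame without a stop.

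Hbb-b2 probe: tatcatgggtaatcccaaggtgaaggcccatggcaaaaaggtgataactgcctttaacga

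For 4 of the 6 genes the 200 bases before the RefSeq start (GRCm38.p6) are shown. These are the members for which a promoter sequence was at hand, and there was none for *Hbb-b2* and *Slc4a1*. Capitals mark 4 short strings or their reverse complements, known as cores of elements in globin promoters. GATAA is bound by GATA factors and CACCC by KLF factors. The CCAAT box and the string TATAA are elements of many promoters. The *Hba-a2* window is chr11:32296292-32296491 on the plus strand, the *Hbb-bt* window of the *Hbb-b1* probe is chr7:103813924-103814123 on the minus strand, the *Hbb-bs* window of the *Beta-s* probe is chr7:103827929-103828128 on the minus strand, and the *Alas2* window is chrX:150547217-150547416 on the plus strand.
Hba-a2: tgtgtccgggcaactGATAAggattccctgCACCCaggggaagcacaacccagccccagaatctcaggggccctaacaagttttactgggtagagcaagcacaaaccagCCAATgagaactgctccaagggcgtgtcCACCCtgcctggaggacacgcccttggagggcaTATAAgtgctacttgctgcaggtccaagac
Hbb-b1 (Hbb-bt): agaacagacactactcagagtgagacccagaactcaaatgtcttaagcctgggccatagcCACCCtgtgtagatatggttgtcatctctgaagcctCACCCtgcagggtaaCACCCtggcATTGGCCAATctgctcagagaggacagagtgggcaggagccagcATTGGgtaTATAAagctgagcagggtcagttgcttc
Beta-s (Hbb-bs): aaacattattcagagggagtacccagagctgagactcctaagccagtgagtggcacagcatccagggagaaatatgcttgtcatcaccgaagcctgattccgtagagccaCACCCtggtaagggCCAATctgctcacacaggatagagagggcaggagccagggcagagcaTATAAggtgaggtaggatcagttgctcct
Alas2: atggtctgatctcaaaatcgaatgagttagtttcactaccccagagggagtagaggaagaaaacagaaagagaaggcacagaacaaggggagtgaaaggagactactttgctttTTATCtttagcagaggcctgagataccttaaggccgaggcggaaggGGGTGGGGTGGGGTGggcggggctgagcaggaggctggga

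Counting back from the start, TATAA begins at -30 in *Hba-a2*, at -28 in *Hbb-bt* and at -29 in *Hbb-bs*. CCAAT begins at -91 in *Hba-a2*, while in *Hbb-bs* CACCC begins at -90 and the CCAAT box at -76. GATAA or its reverse complement begins at -185 in *Hba-a2* and at -86 in *Alas2*, where CACCC or its reverse complement begins at -40, -35 and -30. Among all 32851 promoters of the table, the 250 bases before the start hold GATAA in 22.6%, CACCC in 52.0%, CCAAT in 33.8% and TATAA in 22.8% on either strand. A match is a description of the letters only.

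The samples came from young adult male Balb/c mice. Mice with liver metastases had received murine C26 colorectal cancer (CRC) cells in the spleen and control mice the vehicle PBS. Liver cells were freed by collagenase perfusion, separated on Percoll gradients and, for Kupffer cells, by adherence, and kept in medium with serum for up to a day. The groups are control endothelial (EC), Ito (IC) and Kupffer cells (KC), the same cells from the tumor microenvironment (ET, IT and KT; TME), tumor liver metastases (TM) and CRC primary tumors (TP), with 4 biological replicates each. Each of the 16 arrays carried 2 samples, with EC, IC, KC and TM in Cy3 and ET, IT, KT and TP in Cy5, and an effect of the dye cannot be told apart from one of the TME. The arrays of endothelial and Ito cells shared 1 slide, and those of Kupffer cells and tumors shared the other. Levels are log2 of the intensity that the authors deposited after quantile normalization, and 38.4 to 57.1% of the spots of a channel were well above background.

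Some channels stand apart. Over 17113 probes that every channel measured well above background, the TME minus control difference of array 4 correlated with the mean of arrays 1 to 3 at -0.66 in Ito and at -0.60 in Kupffer cells, while each endothelial array correlated with the mean of the other endothelial arrays at 0.51 to 0.78. ET replicate 2 lay far above the other ET channels in globin level. All these channels stayed in the groups their labels name, and results are also given without them where they matter. The labels of the cell types were checked against marker lists. The summed level of 8 Kupffer markers was 16.33 to 19.06 in Kupffer channels and 14.63 to 18.73 in Ito channels, that of 8 endothelial markers was 14.69 to 15.71 in endothelial and 12.74 to 14.96 in Ito channels, and the lists thus overlap between the labelled types. The summed level of 9 stellate markers was 11.81 to 12.04 in IC replicates 1 to 3, below the 12.55 to 12.83 of EC, and 13.18 in IC replicate 4, while it was 11.90 to 13.56 in IT, 12.26 to 12.38 in ET and 10.97 to 11.30 in Kupffer channels. *Lrat*, which makes the retinyl esters that Ito cells store, was well above background in 6 of the 32 channels, among them 2 of the 8 Ito channels.

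*Hba-a2*, the alpha chain, was well above background in all 32 channels. In control endothelial cells its level was 12.02, 13.17, 12.87 and 12.002 in replicates 1 to 4, and in TME endothelial cells it was 10.99, 16.04, 9.68 and 10.47. ET replicate 2 therefore lay above every EC channel and the other 3 ET channels below every EC channel. In control Ito cells the level was 16.17, 16.41, 16.34 and 17.65, and in TME Ito cells it was 17.19, 17.06, 17.18 and 16.48. Replicate 4 was the highest of the control and the lowest of the TME Ito channels, and these groups overlapped. Kupffer cells were the most even, at 14.60, 14.33, 14.93 and 14.24 in control and 14.19, 14.08, 14.17 and 14.54 in TME channels. The tumors lay lowest, at 6.20, 6.06, 5.41 and 6.21 in metastases and 5.95, 6.72, 6.46 and 6.79 in primary tumors.

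**Figure D1:**
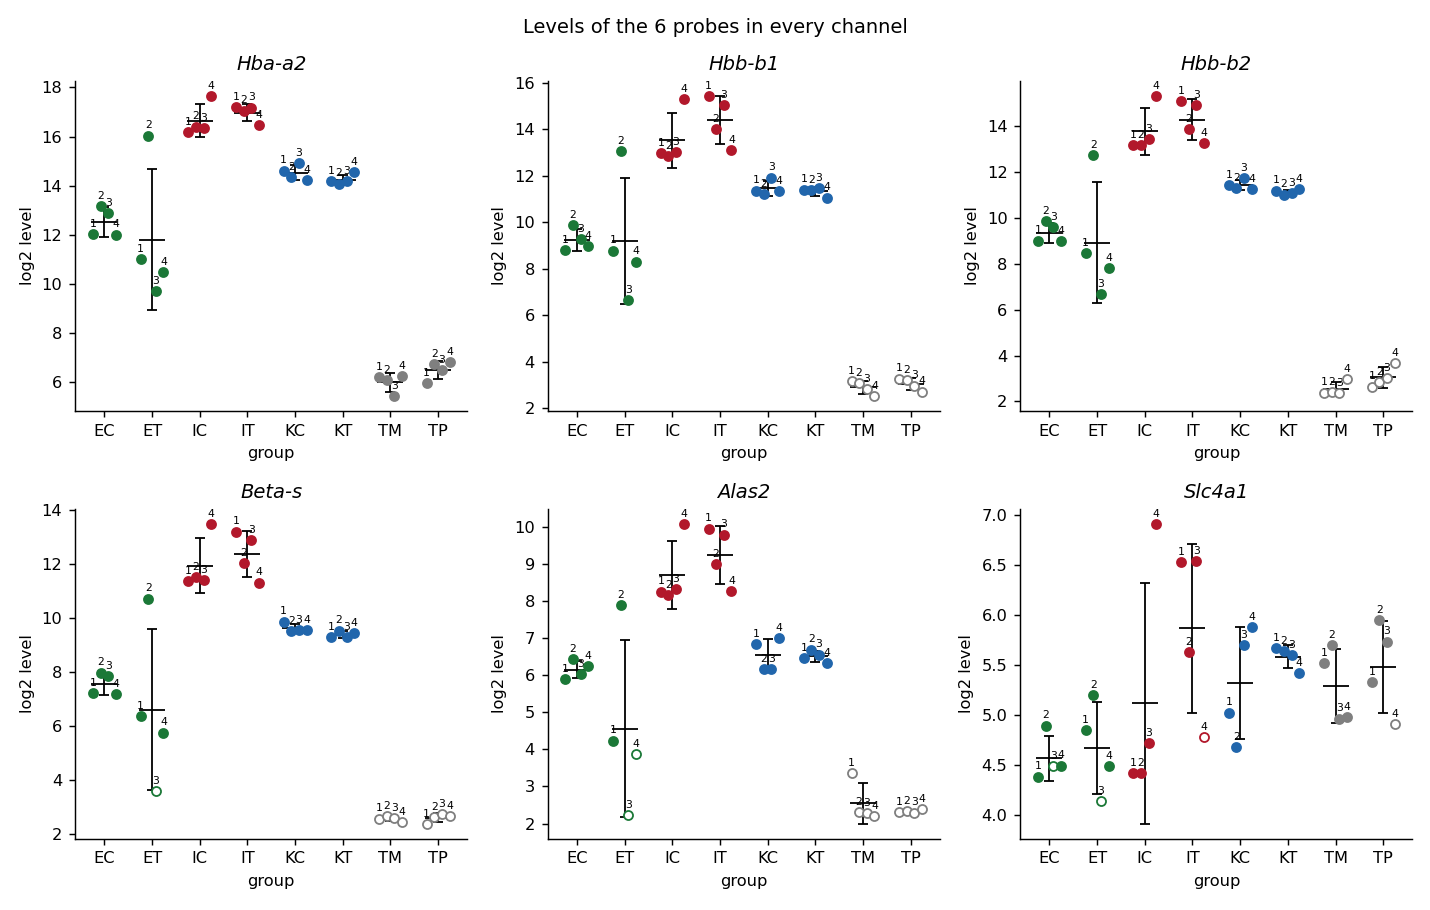
Log2 level of each of the 6 probes (y axis) in the 8 groups (x axis), 1 point per channel with its replicate number, filled where the probe was well above background and open where it was not, with the mean and SD of the group. The 4 globins and *Alas2* are highest in Ito cells and at background or lowest in tumors, ET replicate 2 lies above the other ET channels, and *Slc4a1* stays within 4.13 to 6.92 everywhere.

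*Hbb-b1*, a beta chain, had the same layout. Its level was 8.78, 9.86, 9.27 and 8.95 in EC and 8.77, 13.04, 6.64 and 8.30 in ET. In Ito cells it was 12.97, 12.85, 13.01 and 15.31 in control and 15.41, 13.99, 15.03 and 13.11 in TME channels. In the Ito cells replicates 1 to 3 were thus higher in TME than in control on each array and replicate 4 was lower. Kupffer channels lay at 11.35, 11.20, 11.91 and 11.33 in control and 11.40, 11.37, 11.47 and 11.06 in TME, with no separation. In the 8 tumor channels, at 2.52 to 3.27, the probe was not well above background. *Hbb-b2* ranged from 6.68 to 9.85 over the endothelial channels without ET replicate 2, which reached 12.73, from 13.17 to 15.31 in Ito and from 11.02 to 11.72 in Kupffer channels. *Beta-s* ranged from 3.60 to 7.98 in the endothelial channels without ET replicate 2, which reached 10.71, from 11.30 to 13.48 in Ito and from 9.29 to 9.86 in Kupffer channels. *Beta-s* was not well above background in ET replicate 3, and neither *Beta-s* nor *Hbb-b2* was so in any tumor channel.

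*Alas2*, the heme synthesis enzyme of red cell precursors, followed the globins at its own lower range. Its level was 5.89, 6.44, 6.04 and 6.25 in EC and 4.24, 7.90, 2.22 and 3.88 in ET, where replicates 3 and 4 were not well above background. In Ito cells it was 8.26, 8.17, 8.33 and 10.09 in control and 9.96, 9.01, 9.80 and 8.26 in TME channels. IC replicate 4 was the highest of the control and IT replicate 4 the lowest of the TME Ito channels. In Kupffer cells it was 6.85, 6.17, 6.18 and 6.999 in control and 6.47, 6.69, 6.56 and 6.32 in TME channels. It was not well above background in any tumor channel. ET replicate 3, at 2.22, lay within the range of the metastases, 2.20 to 3.36.

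*Slc4a1*, the band 3 anion exchanger, differed from the 4 globins in that tumors and liver cells overlapped. Its level was 4.38, 4.89, 4.49 and 4.49 in EC and 4.85, 5.20, 4.13 and 4.48 in ET. In Ito cells it was 4.42, 4.42, 4.72 and 6.92 in control and 6.53, 5.63, 6.54 and 4.78 in TME channels. Array 4 again ran against the other Ito arrays, and whether its samples carry the right labels was not tested. Kupffer channels lay between 4.68 and 5.88 and tumor channels between 4.904 and 5.95. The probe was not well above background in EC replicate 3, ET replicate 3, IT replicate 4 and TP replicate 4.

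Among the control cells, all 4 globins were lowest in endothelial, higher in Kupffer and highest in Ito cells, with no overlap between the groups. This is a description, since these values selected the genes, and the order is not the one under which the study lists them, which runs from Ito to endothelial to Kupffer cells. The mean of the globins in IC was 17.5- to 21.4-fold that of EC and 4.24- to 5.10-fold that of KC, and KC was 4.03- to 4.70-fold EC. *Alas2* was 4.48-fold higher in IC than in KC without overlap, while KC and EC overlapped at 1.31-fold. *Slc4a1* overlapped in all 3 pairs. In these bulk samples more cells of a type and more RNA per cell cannot be told apart.

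Differences between groups were then tested with limma in a fit of all 32 channels, and a call needed a Benjamini-Hochberg adjusted p under 0.001 together with a change of 4-fold or more. Between TME and control endothelial cells 0 of the 6 probes were called, where 0.165% of all probes were. The difference of *Hba-a2* was -0.72 ± 0.75 (SE, adjusted p = 1.00 by limma) with a 95% interval of -2.26 to 0.83. *Alas2*, not well above background in 2 of the 4 ET channels, was at -1.59 ± 0.67 (adjusted p = 0.472 by limma) and was the 1 member with an unadjusted p under 0.05. After normexp background correction its difference was -0.39 with quantile and -0.50 with loess and Aquantile normalization. At an adjusted p under 0.05 none of the 6 passed either, where 1.14% of all probes did, and the t-test of the study's methods passed 0. The difference in *Hbb-b1* was -0.03 ± 0.78, in *Hbb-b2* -0.44 ± 0.74, in *Beta-s* -0.95 ± 0.80 and in *Slc4a1* 0.10 ± 0.43.

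The endothelial arrays did not run the same way. On array 2 all 6 probes were higher in the TME than in the control channel, by 0.31 to 3.18, whereas this held for 1 of 6 on array 1 and for 0 of 6 on arrays 3 and 4. Without ET replicate 2, which was left out after its values were seen, *Hba-a2* was lower in TME cells by -2.13 ± 0.35 (adjusted p = 0.00107 by limma), *Alas2* by -2.71 ± 0.45 (adjusted p = 0.00130 by limma) and *Beta-s* by -2.31 ± 0.50 (adjusted p = 0.0159 by limma). These 3 passed an adjusted p of 0.05, as 0.932% of all probes did in that fit, and 0 were called. *Alas2* was however not well above background in 2 and *Beta-s* in 1 of the 3 remaining ET channels. With normexp, loess and Aquantile in place of the deposited values *Alas2* was at -1.08 ± 0.31 (adjusted p = 0.0723 by limma) and *Beta-s* at -1.23 ± 0.39 (0.128), while *Hba-a2* was at -2.10 ± 0.31 (0.000188) and was called, where 0.0305% of all probes were. Without replicate 3 of every group the 4 globin differences were above 0, at 0.11 in *Hba-a2*, 0.84 in *Hbb-b1*, 0.39 in *Hbb-b2* and 0.16 in *Beta-s*, and 0 were called.

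**Figure D2:**
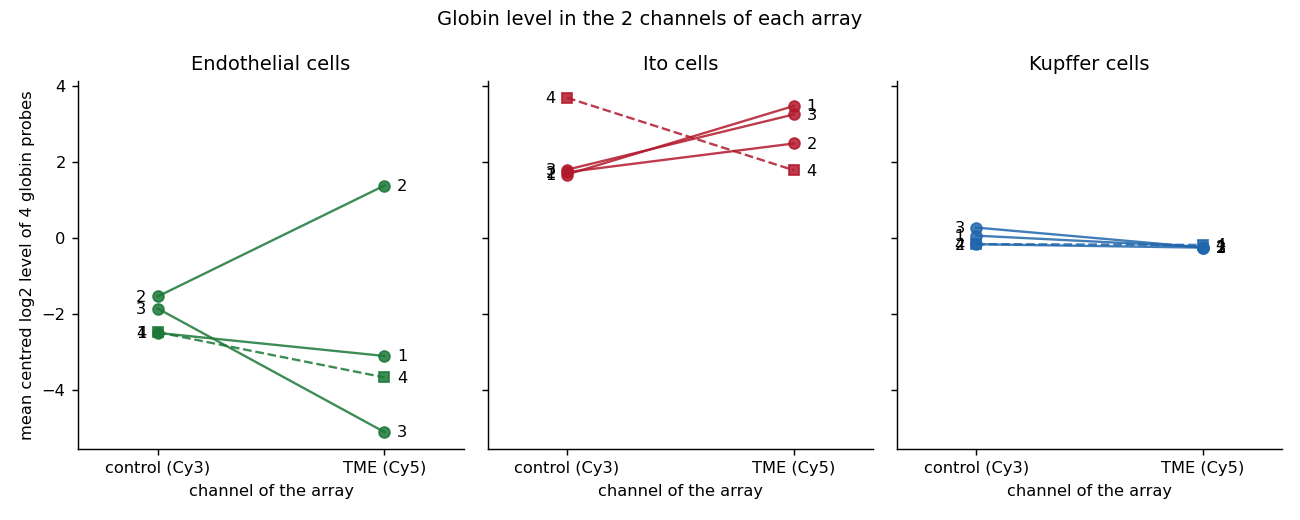
Mean centred log2 level of the 4 globin probes (y axis) in the control (Cy3) and TME (Cy5) channel of each array, joined by a line for each replicate number, with replicate 4 dashed. Endothelial array 2 and Ito array 4 run against the other arrays of their cell type, and the Kupffer arrays are nearly level.

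Between TME and control Ito cells 0 of the 6 probes were called, where 0.0916% of all probes were, 0 passed an adjusted p of 0.05, where 0.289% did, and 0 had an unadjusted p under 0.05 or passed the methods' t-test. The differences ran from 0.33 ± 0.75 in *Hba-a2* to 0.85 ± 0.78 in *Hbb-b1*, with 0.75 ± 0.43 in *Slc4a1* (adjusted p = 0.570 by limma). All 6 probes were higher in the TME channel on arrays 1, 2 and 3 and all 6 were lower on array 4. Without replicate 4 of the Ito and Kupffer cells the difference of *Slc4a1* was 1.72 ± 0.31 (adjusted p = 0.00127 by limma), the 1 member that passed 0.05, as 7.66% of all probes did in that fit. *Hbb-b1* was then at 1.87 ± 0.87 (adjusted p = 0.226 by limma), *Alas2* at 1.34 ± 0.77 (0.354), *Hbb-b2* at 1.36 ± 0.85 (0.407), *Beta-s* at 1.27 ± 0.93 (0.510) and *Hba-a2* at 0.84 ± 0.91 (0.736). *Slc4a1* was dim, at intensities of 21.3 to 26.3 in IC replicates 1 to 3, where channel medians were 18.71 to 18.76. With all channels its difference was 0.27 after normexp and quantile and 0.26 after normexp, loess and Aquantile. Normexp was not combined with leaving out replicate 4 of Ito and Kupffer cells.

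Between TME and control Kupffer cells 0 of the 6 probes were called, where 0.111% of all probes were, 0 passed 0.05, where 0.436% did, and 0 had an unadjusted p under 0.05 or passed the methods' t-test. The KT and KC channels of *Hbb-b2* did not overlap. Overlap was not counted over all probes, here or in the other comparisons. The globins differed by -0.30 ± 0.74 to -0.13 ± 0.78, *Alas2* by -0.04 ± 0.67 and *Slc4a1* by 0.26 ± 0.43. The 95% interval of *Hba-a2*, -1.82 to 1.26, still holds differences of over 2-fold. Between primary tumors and metastases 0 of the 6 were called, where 0.408% of all probes were, 0 passed 0.05, where 3.01% did, and 0 had an unadjusted p under 0.05 or passed the methods' t-test. *Hba-a2* was measured in all 8 tumor channels and differed by 0.51 ± 0.75, and *Slc4a1* by 0.19 ± 0.43.

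**Figure D3:**
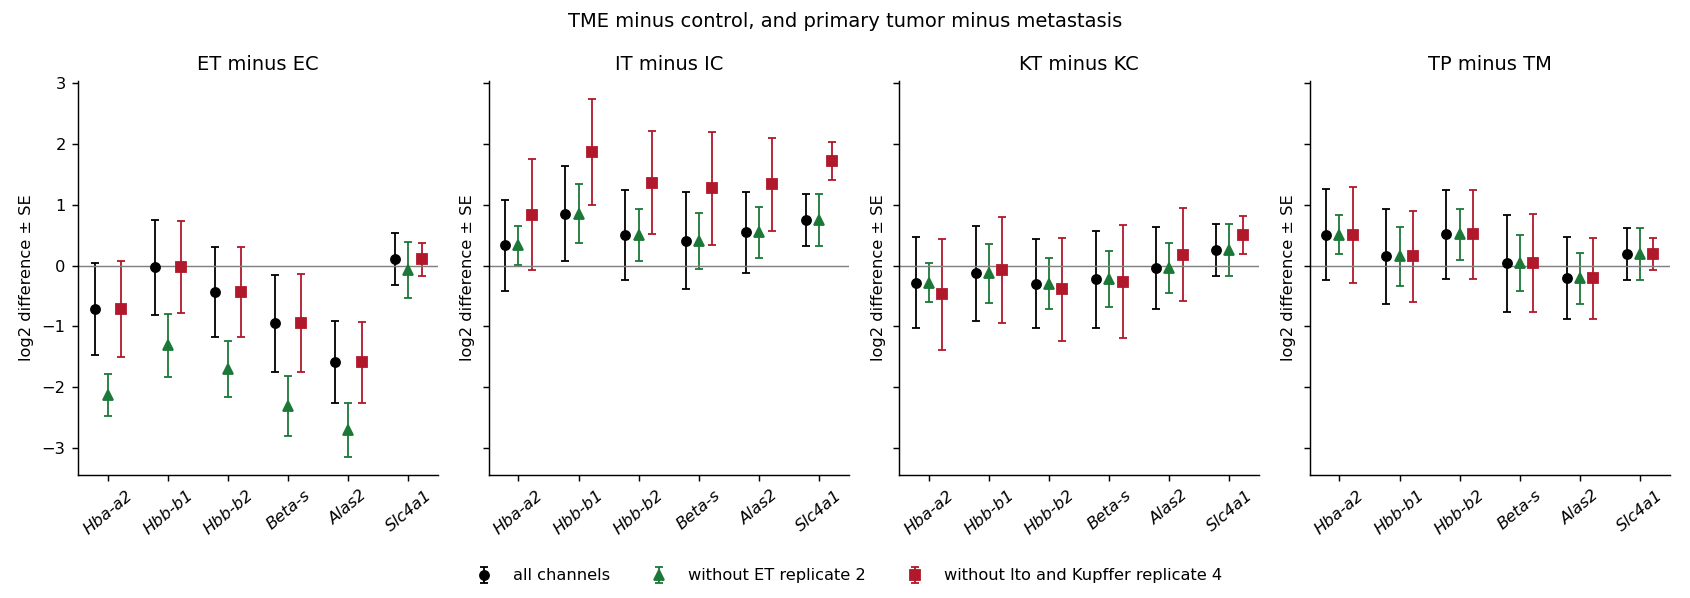
Log2 difference ± SE of each probe in the comparisons of TME with control cells and of primary tumor with metastasis (y axis), fitted to all channels, without ET replicate 2 and without replicate 4 of Ito and Kupffer cells. With all channels 0 probes were called, and the endothelial differences of *Hba-a2*, *Beta-s* and *Alas2* move below -2 without ET replicate 2.

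Whether the change between TME and control differed between cell types was tested directly for the 6 probes and 3 pairs of cell types. 0 of these 18 tests passed an adjusted p of 0.05 in limma, where 0.111% of all probes passed between endothelial and Ito cells, 0.0808% between Kupffer and endothelial cells and 0.00359% between Kupffer and Ito cells. *Alas2* between endothelial and Ito cells, at -2.14 ± 0.95 (adjusted p = 1.00 by limma), was the 1 test with an unadjusted p under 0.05. Without ET replicate 2 this difference was -3.25 ± 0.61 (adjusted p = 0.0207 by limma) and that of *Hba-a2* -2.47 ± 0.47 (adjusted p = 0.0230 by limma). With normexp, loess and Aquantile and without that channel *Alas2* was at -1.43 ± 0.42 (adjusted p = 0.204 by limma) and *Hba-a2* at -2.54 ± 0.43 (0.00262). Without replicate 4 of Ito and Kupffer cells that of *Slc4a1* was -1.61 ± 0.41 (adjusted p = 0.0457 by limma). This fit was run on the deposited values only.

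The TME cell types were compared with each other, on channels that the study's listing of the globins did not use. Each of these channels shares an array with a control channel, and the fit shares 1 spread with the control groups. The comparison is therefore not independent of that listing. TME endothelial cells were lower than TME Ito cells in 5 of the 6 probes, all called, where 0.871% of all probes were called. The groups did not overlap in these 5, which was not set against the share of all probes. Both cell types carried the same dye on the same slide. The difference was -5.18 ± 0.75 (36.3-fold) in *Hba-a2*, -5.20 ± 0.78 (36.7-fold) in *Hbb-b1*, -5.36 ± 0.74 (41.0-fold) in *Hbb-b2*, -5.73 ± 0.80 (53.3-fold) in *Beta-s* and -4.70 ± 0.67 (25.9-fold) in *Alas2*, with adjusted p between 2.00e-05 and 6.16e-05 by limma. In ET, *Beta-s* was well above background on 3 of the 4 arrays and *Alas2* on 2, and their folds depended on the background correction. After normexp *Beta-s* was 23.4-fold lower with quantile and 24.4-fold lower with loess and Aquantile normalization, and *Alas2* 5.90-fold and 6.21-fold. All 5 were called in both, where 0.456% and 0.471% of all probes were. *Slc4a1* differed by -1.20 ± 0.43 (adjusted p = 0.0868 by limma). At an adjusted p of 0.05 the same 5 passed, where 8.26% of all probes did.

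These calls depended on the channels in the fit. Without ET replicate 2 the 5 differences were -7.10 to -5.81 and all 5 were called, where 0.806% of all probes were, and without replicate 4 of Ito and Kupffer cells they were -6.08 to -5.03 and all 5 were called, where 0.855% were. Without replicate 3 of every group they were -4.56 to -3.74, with 21.2-fold in *Hba-a2* and 13.3-fold in *Alas2*, and 0 were called, where 0.395% of all probes were. Without replicate 1 of every group 0 were called, where 0.304% were, and without replicate 4 of every group 1 was, where 0.611% were. At an adjusted p of 0.05, 5 members passed without replicate 1 (3.11% of all probes), 5 without replicate 3 (4.57%) and 6 without replicate 4 (6.68%). With only the ET and IT channels in the fit 0 were called, at adjusted p of 0.0676 to 0.0824, and the methods' t-test called 0 at either limit.

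TME Kupffer cells lay between the other cells. Against TME endothelial cells 0 of the 6 probes were called, where 2.32% of all probes were, and 4 passed an adjusted p of 0.05, where 21.8% did. All 6 had an unadjusted p under 0.05, and the methods' t-test called 0 and passed 1 at 0.05. The 4 were *Beta-s* at 2.77 ± 0.80 (adjusted p = 0.0117 by limma), *Hba-a2* at 2.45 ± 0.75 (0.0181), *Hbb-b2* at 2.21 ± 0.74 (0.0308) and *Alas2* at 1.95 ± 0.67 (0.0371). *Hbb-b1*, at 2.14 ± 0.78, had an adjusted p of 0.0505 by limma. *Slc4a1*, at 0.92 ± 0.43, had one of 0.144, and its groups did not overlap. ET replicate 2 lay above every TME Kupffer channel in all 5, and without it all 5 were called at 3.06 to 4.14, where 2.16% of all probes were. After normexp, with all channels, 1 member passed 0.05 with quantile and 2 with loess and Aquantile normalization, where 21.2% and 22.7% of all probes did. Against TME Ito cells 0 were called, where 0.937% of all probes were, and 5 passed 0.05, where 15.2% did. The groups did not overlap in these 5, and overlap was not counted over all probes. The differences were -2.73 ± 0.75 in *Hba-a2*, -3.06 ± 0.78 in *Hbb-b1*, -3.15 ± 0.74 in *Hbb-b2*, -2.96 ± 0.80 in *Beta-s* and -2.75 ± 0.67 in *Alas2*, with adjusted p of 0.00385 to 0.0129 by limma. The same number, 5, had an unadjusted p under 0.05, and the methods' t-test called 0 and passed 5 at 0.05. Leaving out ET replicate 2 did not change these differences, but the SE of *Hba-a2* fell from 0.75 to 0.32 because the fit shares 1 spread over all groups. All 5 were then called, where 0.929% of all probes were. Since Kupffer cells were on a different slide from endothelial and Ito cells, slide and cell type cannot be told apart in either comparison.

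**Figure D4:**
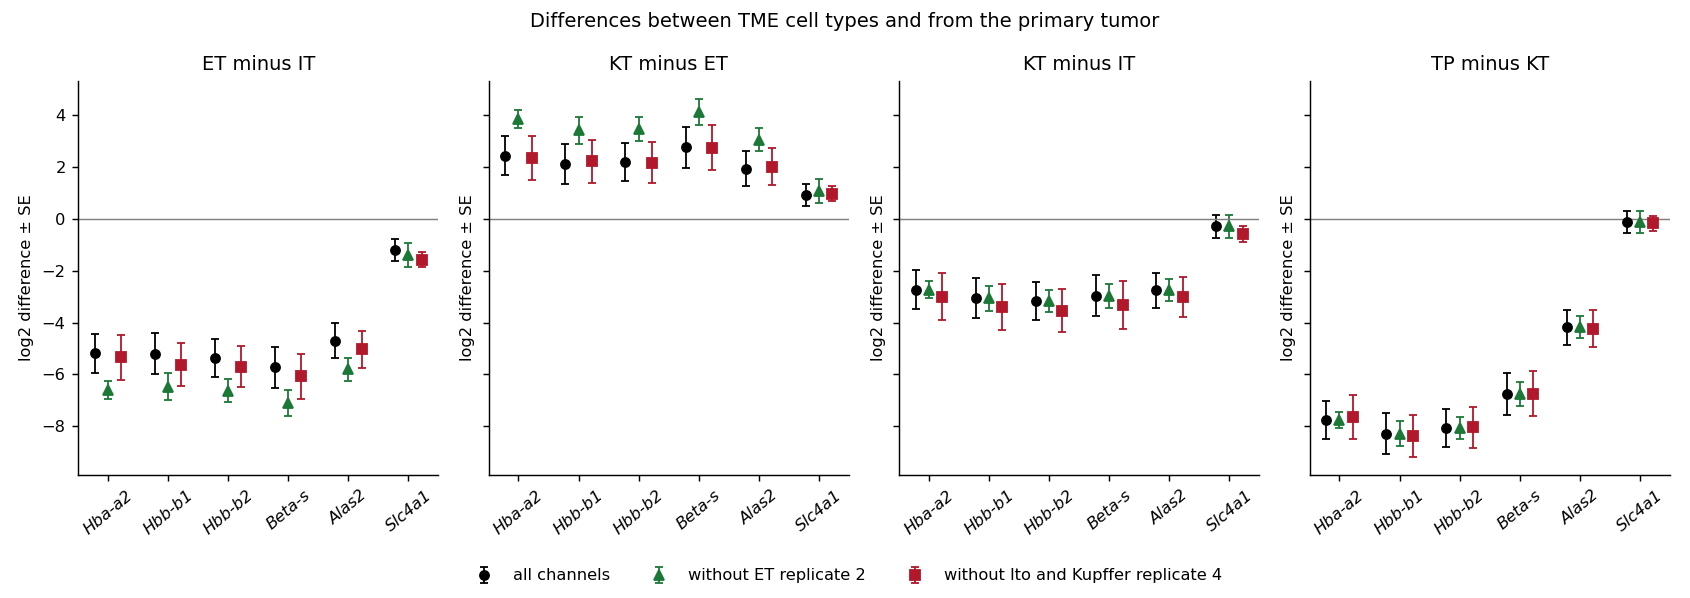
Log2 difference ± SE of each probe between TME cell types and between primary tumor and TME Kupffer cells (y axis), fitted to all channels, without ET replicate 2 and without replicate 4 of Ito and Kupffer cells. With all channels the 4 globins and *Alas2* lie at -5.73 to -4.70 in ET minus IT, and *Slc4a1* lies within -1.20 to 0.92 in the 4 comparisons.

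Primary tumors were lower than TME Kupffer cells, on the same dye and slide, in 5 of the 6 probes, all called, where 15.9% of all probes were called and 43.6% passed an adjusted p of 0.05. *Hba-a2* was measured in both and was lower by -7.76 ± 0.75 (217-fold, adjusted p = 1.43e-09 by limma), or by 119-fold after normexp and quantile and 114-fold after normexp, loess and Aquantile. The other 4 were not well above background in primary tumors, where only a lower bound of the fold can be had, from loess and Aquantile normalized signals against the dimmest probe well above background on each array. By this bound TME Kupffer cells were at least 34.3-fold higher in *Hbb-b1*, 28.0-fold in *Hbb-b2*, 8.48-fold in *Beta-s* and 2.34-fold in *Alas2*. The bounds themselves were not tested. The calls of these 4 rest on the deposited values, with adjusted p of 4.77e-10 to 7.92e-06 by limma. *Alas2*, whose bound is below 4-fold, was not called after normexp (adjusted p = 0.00563 with quantile and 0.00940 with loess and Aquantile by limma), which leaves 4 called, where 8.63% and 8.8% of all probes were. *Slc4a1* differed by -0.10 ± 0.43, with a 95% interval of -0.99 to 0.78.

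The members were also set against each other over the 24 liver cell channels. The correlation of log2 levels was 0.98 to 0.99 among the 4 globin probes and 0.95 to 0.97 between *Alas2* and the globins, while *Slc4a1* correlated with the other 5 at 0.59 to 0.70. These are descriptions over channels that share arrays, and channels of 3 cell types at different levels.

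Other erythroid genes were taken from a list of globins, heme synthesis enzymes, red cell membrane proteins, regulators and other red cell genes. Of its 83 genes on the array besides the members, 57 were well above background in all 4 channels of some group. *Hba-a1*, the other adult alpha chain, followed the members, at 9.84 to 11.26 in EC, 7.57 to 13.85 in ET, 14.28 to 15.83 in IC and 14.25 to 15.74 in IT. It was lower in ET than in IT by -5.38 ± 0.78 (adjusted p = 4.19e-05 by limma). Near-identical globin copies may share a probe, so *Hba-a1* is not read as a gene separate from *Hba-a2*. Of the 14 defining genes of the lists, 5 were well above background in no channel, among them *Rhag*, *Sptb* (beta spectrin) and *Klf1*, the regulator that drives adult beta globin, and 6 in 1 to 4 channels. *Ahsp*, which stabilizes free alpha chains, was at 7.28 in IC replicate 4, 6.92 in IT replicate 1 and 6.73 in IT replicate 3, and was not well above background in the other 29 channels. The embryonic *Hbb-bh1* was higher in primary tumors than in TME Kupffer cells by 3.50 ± 0.55 (adjusted p = 5.84e-06 by limma), the opposite direction to the members. *Epor*, the erythropoietin receptor, was at 5.28 to 5.59 in ET and 5.31 to 5.98 in KT.

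Between TME and control 0 of the 57 were called in any cell type, and 0 between the tumors. At an adjusted p of 0.05, there were 3 in the endothelial comparison, 0 in the Ito comparison, 1 in the Kupffer comparison and 2 between the tumors, where 1.14%, 0.289%, 0.436% and 3.01% of all probes passed. Without replicate 4 of Ito and Kupffer cells 1 was called in Ito cells, *E2f2*, where 0.481% of all probes were. *Hba-a1*, *Epb4.9* (dematin) and *Tfr2* (transferrin receptor 2) were lower in ET than in IT, 3 of 57, where 0.871% of all probes were called. The median difference over the 57 was 0.17. *Epb4.9* was not called without ET replicate 2, nor without replicate 4 of Ito and Kupffer cells. In KT, 4 were higher than in ET, namely *Epb4.9*, *Lyl1*, *Car2* (carbonic anhydrase 2) and *Tfr2*, where 2.32% of all probes were called. Against IT 2 were higher in KT, *Xk* and *Car2*, where 0.937% were called. *Xk* was well above background in no TME Ito channel. By the bound its fold was at least 1.51, below the 4-fold of a call, so its call rests on the deposited values. Without replicate 4 of Ito and Kupffer cells *Lyl1* and *Tfr2* were not called between KT and ET. *Car2* was at 13.64 in KT, 10.78 in ET and 11.27 in IT on average, so that it did not share the order of the globins. Between primary tumor and TME Kupffer cells 9 of the 57 were higher and 19 lower, where 4278 of all 55681 probes were called higher and 4596 lower (15.9% together). The 57 were kept for their signal, so no excess or lack against the share of all probes is read from any of these counts. The heme synthesis enzymes *Urod* and *Cpox* were higher in primary tumors by 2.34 ± 0.29 and 2.82 ± 0.28, while *Car2* was at least 164-fold and *Kit* at least 16.8-fold higher in TME Kupffer cells. *Rhd*, a Rhesus blood group gene, was well above background in the 8 tumor channels only. By the bound it was at least 30.5-fold higher in primary tumors than in TME Kupffer cells. *Rhd* was kept among the 57 through the tumors alone, so its direction was set by that filter. *Car2* and *Kit* were not well above background in primary tumors and were kept through other groups.

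The 10 genes outside the members whose log2 level was most like the mean globin profile over the 24 liver cell channels were *Hba-a1* (r = 0.997) and, at r of 0.89 to 0.92, *Serpind1*, *Apob*, *Khk*, *Acot1*, *Itih2*, *Havcr1*, *Fetub*, *Zdhhc22* and *Slc40a1*, among 15170 genes. *Serpind1*, *Apob*, *Itih2* and *Fetub* encode plasma proteins that hepatocytes secrete, and *Khk* is the fructokinase of the liver. Within the 8 Kupffer channels alone these 9 correlated with the globins at -0.84 to 0.77, whereas *Hba-a1* was at 0.83. Within the Ito channels the 9 ran from -0.04 (*Acot1*) to 0.94 (*Fetub*), and within the endothelial channels from 0.78 to 0.94. These likenesses are descriptions over channels that share arrays.

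Markers of other cells were set beside the globin level, and they moved with it in some channels and not in others. The summed level of 8 hepatocyte genes, among them *Alb*, was 15.00 to 15.25 in EC, 13.83 to 13.94 in ET except 15.19 in ET replicate 2, and 17.09 to 17.37 in IC except 18.73 in IC replicate 4. That sum was 18.48, 17.24, 18.44 and 17.29 in IT replicates 1 to 4. Replicates 2 and 4 stood at the level of IC replicates 1 to 3. The mean centred globin level was 2.48 in IT replicate 2 and 1.78 in IT replicate 4, against 1.66 to 1.79 in IC replicates 1 to 3. It was 1.37 in ET replicate 2, against -2.50 to -1.54 in EC. In Kupffer cells KC replicate 3 had the lowest sum, 13.95 against 15.21 to 15.99 in the other KC channels, and the highest mean centred globin level, 0.27 against -0.17 to 0.06. KT replicates 1 to 3, at 15.15 to 15.17, stood at the hepatocyte sum of EC, with a mean centred globin level of -0.26 to -0.24 against -2.50 to -1.54 in EC. Of the 8 genes, 7 were well above background in each endothelial and Kupffer channel and 8 in each control Ito channel. The neutrophil list of 9 genes summed to 10.41 to 10.58 in IC replicates 1 to 3 and 13.90 in replicate 4, and to 13.11 to 14.30 in IT replicates 1 to 3 and 10.80 in replicate 4, but to 11.95 to 13.04 in ET, above the 10.02 to 10.54 of EC. The mean centred globin level of ET replicates 1, 3 and 4 was -5.11 to -3.11, below that of EC. The part of other cells in the globin level was not tested.

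**Figure D5:**
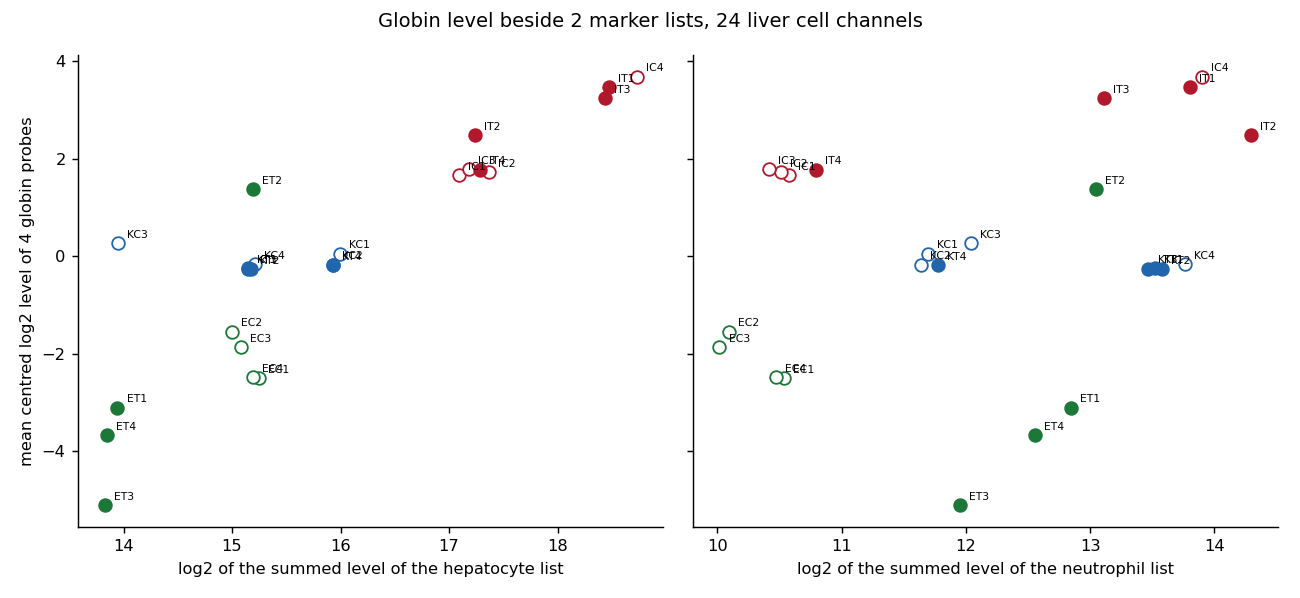
Mean centred log2 level of the 4 globin probes (y axis) against the log2 of the summed level of the hepatocyte and of the neutrophil list (x axes) in the 24 liver cell channels, control channels open and TME channels filled. ET replicate 2 lies beside the control endothelial channels on the hepatocyte axis, and IC replicate 4 lies with IT replicates 1 and 3 on both.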

How the data were processed

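RNA of 32 samples in 8 groups was hybridized in pairs to 16 two-colour Agilent mouse arrays. The authors extracted the spot intensities with Feature Extraction and deposited the scanner files, which come as identical pairs for the 2 channels of an array, and a table of linear intensity after quantile normalization. The deposited table ranks the probes of each channel as that channel's scanner signal does (rank correlation at least 0.9996), and its channel medians are 18.45 to 19.68. The deposited background and saturation flags (unit: other) were read as given, and 0 spots were saturated. Groups came from the sample labels.

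Levels were log2 of the deposited intensity. limma 3.58.1 in R 4.3.3 was fitted to all 55681 probes and 32 channels, and p-values were adjusted over all probes by Benjamini-Hochberg. Calling required an adjusted p under 0.001 and at least 4-fold. The scripts were tested on simulated data. Likeness is the Pearson correlation with the mean centred profile of the 4 globins, among genes well above background in at least 12 of 24 liver channels, and the 10 highest are named together with all members. The members and gene lists were chosen with earlier results of these data known. The 4 arrays of a group limit the precision.

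Samples of the same number share an array. Deviations from the group mean on the same array correlated at 0.34 to 0.52 in endothelial cells, at 0.32 to 0.35 for Ito replicates 1 to 3 and -0.29 for replicate 4, at 0.27 to 0.32 and -0.20 in Kupffer cells, and at 0.12 to 0.33 in tumors. Alternatives were other normalizations and filters, a fit of the compared groups alone, a block for the array, the methods' t-test, other limits and leaving out each replicate. Leaving out ET replicate 2, also with normexp, loess and Aquantile, leaving out replicate 4 of Ito and Kupffer cells, and the alternatives for differences of change between cell types were added after seeing the data. The other measurements of the study were not analysed here.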

Additional observations from a re-analysis of the deposited data

Results flagged for a closer look

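In 48 sets of 4 channels, 1 for each member and group, the gap of the highest or lowest channel to its neighbour was set against the range of the set (Dixon's ratio). The 95% limit, which chance passes in about 1 of 20 sets, was passed in 9 sets. IC replicate 4 was the highest control Ito channel in all 6 members, with a ratio of 0.839 in *Hba-a2*, 0.938 in *Hbb-b1*, 0.873 in *Hbb-b2*, 0.938 in *Beta-s*, 0.914 in *Alas2* and 0.879 in *Slc4a1*. These 6 are 1 channel and not separate observations. KC replicate 1 was highest in *Beta-s* (0.892). TM replicate 4 was highest in *Hbb-b2* (0.921) and TM replicate 1 in *Alas2* (0.904), where neither probe was well above background. ET replicate 2 did not pass the limit in any member.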

How the results depend on the processing

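Of the counts of called members in the 8 comparisons, 120 values under the alternatives were within 1.5 times the main count and 16 were not. With normexp, loess and Aquantile and without ET replicate 2, 1 was called between ET and EC, 4 between KT and ET and 5 between KT and IT, and 1 difference of change passed. Of all probes 0.0305%, 1.44% and 0.487% were called in these comparisons. Between ET and IT, where 5 were called, 0 were called with only the groups compared in the fit and 0 by the methods' t-test, and 0 to 5 when 1 replicate was left out. Between KT and ET, where 0 were called, 4 passed an adjusted p of 0.05 with no minimum fold, 5 were called without ET replicate 2, and 0 to 5 when 1 replicate was left out. Between KT and IT, where 0 were called, 5 passed an adjusted p of 0.05. After normexp 3 were called with quantile and 3 with loess and Aquantile, where 0.506% and 0.496% of all probes were. The count was 5 without ET replicate 2, and 0 to 2 when 1 replicate was left out. Between TP and KT 5 were called in every leave-out of the deposited values, but 4 after normexp with either normalization, where *Alas2* was not called. Differences of change between cell types passed in 0 of 18 tests, in 2 without ET replicate 2 and in 1 without Ito and Kupffer replicate 4. With the array as a replicate block (block correlation 0.0783) no count of calls changed, and 5 were called between ET and IT.

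Of the log2 differences, 599 kept direction and side of the threshold, 22 lost and 33 gained significance, and 18 turned, none of them called. *Hbb-b1* in ET minus EC was 0.0754 after normexp and quantile, *Slc4a1* -0.0734 without ET replicate 2, *Alas2* in KT minus KC 0.18 without Ito and Kupffer replicate 4, and *Alas2* in TP minus TM 0.14 after 75th percentile scaling. With 1 replicate or ET replicate 2 alone left out, ET minus EC ran from -2.13 to 0.11 in *Hba-a2*, -1.31 to 0.84 in *Hbb-b1*, -1.70 to 0.39 in *Hbb-b2*, -2.31 to 0.16 in *Beta-s* and -0.0734 to 0.26 in *Slc4a1*. *Beta-s* in IT minus IC ran from -0.0598 to 1.27 and *Alas2* in KT minus KC from -0.22 to 0.18. In TP minus TM *Beta-s* ran from -0.0197 to 0.12, *Alas2* from -0.34 to 0.0712 and *Slc4a1* from -0.0031 to 0.32, and *Slc4a1* in TP minus KT from -0.24 to 0.0337. The cause was not tested. ET replicate 2 was left out for its globin values, so the values without it are no independent support.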

Other observations

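The summed level of 4 epithelial genes was 17.23 in IT replicate 2 and 12.18 to 12.33 in the other TME Ito channels, and it was 13.55 in ET replicate 2 and 11.10 to 11.18 in the other TME endothelial channels. The embryonic *Hbb-bh1* was at 7.87 in IC replicate 3 and 7.24 in IT replicate 3, which share an array, and at 4.67 to 4.94 in the other control Ito channels.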
